A study of Phalaenopsis aphrodite subsp. formosana with 4 samples.

Results

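miR159 and miR319 are a pair of related microRNA (miRNA) families of land plants. Their members in the orchid Phalaenopsis aphrodite subsp. formosana (M1624) were taken as every unique sequence whose best matching known miRNA was named miR159 or miR319. A unique sequence is called a form below. The rule found 345 forms of miR159 with 4411 reads and 36 forms of miR319 with 192 reads, together 381 of the 11129 matched forms and 2 of the 368 families of the series. One abundant sequence that the study names under miR159 was not analysed here, so every miR159 level, ratio, share and order below is that of the analysed forms and may differ from that of the whole family.

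Small RNAs were sequenced from leaves of untreated plants (NL), leaves of plants under low ambient temperature (CL), stalks (S) and flower buds (FB), 1 library each. All plants were first grown at 28 °C. NL plants then had days of 32 °C and nights of 27 °C, which holds back the change to flowering, and the plants of CL, S and FB had 24 °C and 18 °C. Leaves of both kinds were collected over months 0 to 2, S at months 1.5 to 2 and FB at month 3.5. Only CL against NL compares temperatures in 1 organ. In every comparison of S or FB with CL the organ and the time of collection changed together and cannot be told apart, and the temperature of FB plants after month 2 was not stated. No gene that marks an organ is measured in small RNA data, so the organ labels could not be checked. With 1 library a group there was no replicate spread and no test between conditions, and every interval below is a 95% interval for counting error only. PCR copies of a molecule were counted as separate reads, which these intervals leave out.

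In plants, a miRNA guides an Argonaute protein to messenger RNAs with a matching site, which are then cut or held back from translation. In Arabidopsis, miR159 acts on messenger RNAs of GAMYB-type MYB factors such as MYB33 and MYB65, which take part in gibberellin responses and in anther development. In the same plant miR319 acts on messenger RNAs of TCP factors, which limit cell division in leaves and petals. The mature sequences of both families are close, and the seed, bases 2 to 8 from the 5′ end, takes a large part in finding targets. No target RNA was measured here.

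The first sequences are the leading form of each family among those analysed and some forms that differ from it at an end, shown to place the families beside each other. They are written 5′ to 3′ in DNA letters as deposited (T stands for U), with the seed in capitals.
Form A, miR159, 21 nt, best match ath-miR159a: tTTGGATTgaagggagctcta
Form E, miR159, 21 nt, best match osa-miR159a.1: tTGGATTGaagggagctctgc
Form J, miR159, 21 nt, best match osa-miR159a.1: tTTGGATTgaagggagctctg
Leading miR319 form, 21 nt, best match ath-miR319a: tTGGACTGaagggagctccct
Longer miR319 form, 22 nt, best match ppt-miR319c: cTTGGACTgaagggagctccct
When the second base of form A was set on the first base of the leading miR319 form, 17 of 20 bases were the same. With positions counted from 1 at the 5′ end of form A, and form A's base given first, the differences were T7C, T20C and A21C. The T7C difference lies in the seed and the other differences lie at the 3′ end.

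Among the analysed forms each family had a leading seed of its own. The seed TTGGATT of form A was carried by 257 forms and 94.9% of the analysed miR159 reads. The miR159 sequence not analysed here has another seed, so this share would be lower with it. The seed TGGATTG, which begins 1 base further along, was carried by 18 forms, form E among them, and by 2.92% of the reads. In miR319 the seed TGGACTG was carried by 12 forms and 66.7% of the reads, and the seed TTGGACT of the longer form by 5 forms and 8.33%. The share of miR159 reads with the leading seed was 94.3% in NL and 95.6% in CL, against 95.9% in S and 94.3% in FB. Nearly all analysed reads of miR159 thus began at the same base in every library. Between 99.2% and 99.5% of them began with T, in RNA the U that the Argonaute protein AGO1 of Arabidopsis favours.

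A 2nd set of sequences shows the 3′ ends of miR159, on which several differences between libraries turn. Capitals mark the letters that follow the stretch shared with form A, and a line with no capitals is an exact part of form A.
Form B, 18 nt, the first 18 bases of form A: tttggattgaagggagct
Form C, 18 nt: tttggattgaagggagTT
Form F, 19 nt: tttggattgaagggagcAA
Form G, 18 nt: tttggattgaagggagcA
Form I, 19 nt: tttggattgaagggagctc
Form H, 20 nt: tttggattgaagggagctct
Form D, 20 nt: tttggattgaagggagctTA
Form M, 21 nt: tttggattgaagggagTTCTA
Forms A, B, C, E, I, J and M follow from the naming rule given with the methods. Forms D, F, G, H and K, the further forms shown and all sets of forms by length, position or ending were chosen after their values were seen.

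The analysed miR159 forms were detected in all 4 libraries and their sum was highest in FB. NL held 598 reads, CL 1034, S 850 and FB 1929. Per 1000000 clean reads (RPM) these were 83.0 (76.5 to 90.0) in NL and 140 (131 to 149) in CL, and 106 (99.0 to 113) in S and 305 (292 to 319) in FB. For these forms the order was NL, S, CL and FB, and no neighbouring intervals overlapped. The order of S and CL does not carry over to the whole family, since the sequence not analysed here is absent from these sums. Among all families miR159 ranked 11 in NL, CL and FB and 10 in S.

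miR319 was far scarcer, and nearly all of its reads came from S and FB. It had 4 reads in NL and 14 in CL, against 71 in S and 103 in FB, or 0.555 RPM (0.151 to 1.42), 1.89 (1.03 to 3.17), 8.86 (6.92 to 11.2) and 16.3 (13.3 to 19.8). The intervals of NL and CL overlapped. Those of S and FB lay apart from each other and above both leaf libraries. In bulk tissue, fewer cells with a miRNA and less of it in each cell cannot be told apart.

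**Figure D1:**
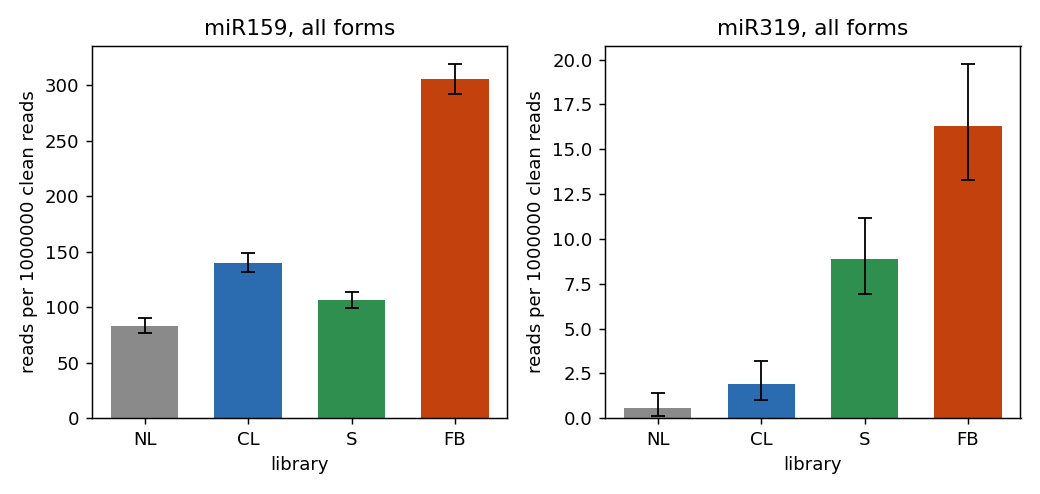
Levels of miR159 (left) and miR319 (right), all forms summed, in the 4 libraries. Bars are reads per 1000000 clean reads and error bars the exact Poisson 95% interval, which covers counting error only; miR159 reached 305 and miR319 16.3 in FB, and the vertical axes of the panels differ.

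Within the leaf comparison the ratio of RPM, CL over NL, was 1.68 (1.52 to 1.86) for miR159 and 3.41 (1.07 to 14.2) for miR319. The miR319 ratio rests on 14 and 4 reads, and the lower end of its interval lay just above 1. Per matched read it was 1.96 (0.616 to 8.18), and with the letters of the leading form alone 2.43 (0.702 to 10.6) per clean read, so the leaf difference of miR319 was not held beyond counting error. The miR159 ratio was not held when the reads were set against all reads that matched a known miRNA, 226523 in NL and 404345 in CL. It was then 0.969 (0.875 to 1.07), with 0.264% of matched reads in NL and 0.256% in CL. miR159 was thus higher in CL per clean read and had an interval around 1 per matched read. Of the 25 families with at least 100 reads over the leaf libraries, 11 passed a ratio of 1.5, the median ratio was 1.40, and miR159 stood 9th from the highest.

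In S the summed level of the analysed miR159 forms was 0.759 (0.692 to 0.832) of that in CL, while miR319 was 4.68 times (2.62 to 8.99) as high. Here too the scale decided the side for miR159. S held 106142 matched reads, and per matched read the ratio of S to CL was 3.13 (2.86 to 3.43) for miR159 and 19.3 (10.8 to 37.1) for miR319. Of the 25 families tested in this comparison 18 fell below the inverse of 1.5 per clean read and the median ratio was 0.472, and miR159 stood 7th from the highest. The higher miR319 level in S was found on both scales.

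FB had more of both families than CL on either scale. The ratio of FB to CL was 2.19 (2.03 to 2.36) for miR159 and 8.62 (4.91 to 16.3) for miR319 per clean read, and 2.84 (2.63 to 3.07) and 11.2 (6.39 to 21.2) per matched read. Among 28 families with at least 100 reads over this pair of libraries, 9 passed 1.5, the median ratio was 0.939, and miR319 stood 2nd and miR159 8th from the highest. Against S, FB held 2.88 times (2.65 to 3.13) the miR159 and 1.84 times (1.35 to 2.53) the miR319 per clean read. Per matched read these ratios were 0.908 (0.837 to 0.985) and 0.580 (0.425 to 0.797), so the order of S and FB depended on the scale. The median ratio of FB to S over 26 families was 2.66, with 17 families above 1.5.

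The balance between miR319 and the analysed miR159 forms needs no scale, since both counts come from the same library. With the miR159 sequence not analysed here, the miR319 shares below would be lower. miR319 made up 0.664% (0.181 to 1.69) of the reads of both families in NL and 1.34% (0.732 to 2.23) in CL, and 7.71% (6.07 to 9.62) in S and 5.07% (4.16 to 6.11) in FB. The shares of NL and CL overlapped, those of S and FB just overlapped, and every interval of S and FB lay above every interval of the leaves. In reads, the analysed miR159 forms outnumbered miR319 by 149.5 to 1 in NL and 73.9 to 1 in CL, against 12 to 1 in S and 18.7 to 1 in FB.

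Form A had the most reads of the analysed miR159 forms in every library and held 43.3% of their reads over all libraries. It had 321 reads in NL and 541 in CL, and 319 in S and 730 in FB, or 44.6, 73.1, 39.8 and 116 RPM. CL over NL was 1.64 (1.43 to 1.89), S over CL 0.544 (0.472 to 0.626) and FB over CL 1.58 (1.41 to 1.77). Form A was thus lower in S than in CL per clean read, while its NL and S levels were close and were not compared beyond counting error. Per matched read, all 7 miR159 forms counted between S and CL, form A among them, were higher in S. Its share of the analysed miR159 reads was lower in both inflorescence libraries than in the leaves. The share of form A was 53.7% (49.6 to 57.7) in NL and 52.3% (49.2 to 55.4) in CL, against 37.5% (34.3 to 40.9) in S and 37.8% (35.7 to 40.1) in FB. Without form A, the ratio of S to CL for miR159 was 0.994 (0.878 to 1.13) and that of FB to CL 2.85 (2.56 to 3.17).

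Form B, the first 18 bases of form A, came 2nd with 1078 reads. Its reads were 125 in NL and 234 in CL, against 182 in S and 537 in FB, or 17.4, 31.6, 22.7 and 85.0 RPM. It had the highest ratio of CL to NL among the miR159 forms counted, 1.82 (1.46 to 2.28), and in FB it was 2.69 times (2.30 to 3.15) the CL level. Forms H and I, which are 20 and 19 bases of the same stretch, had only 65 and 61 reads. The series of exact stretches from base 1 therefore did not fall off evenly with length: it had many reads at 21 nt and 18 nt and few between. Sequences below 18 nt were removed before deposit, so that nothing can be said of shorter stretches, and the gel slice was cut for 20 to 25 nt.

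By length, 21 nt forms held 58.4% (54.3 to 62.3) of miR159 reads in NL and 57.6% (54.6 to 60.7) in CL, and 46.2% (42.8 to 49.7) in S and 44.6% (42.4 to 46.9) in FB. The 18 nt forms held 28.6% (25.0 to 32.4) in NL and 27.7% (25.0 to 30.5) in CL, against 35.9% (32.7 to 39.2) in S and 39.1% (36.9 to 41.3) in FB. Leaf and inflorescence libraries did not overlap in either length class, while the leaf libraries overlapped each other, as did S and FB. The 19 nt forms held 2.61% (1.73 to 3.78) in CL and 6.43% (5.37 to 7.62) in FB. The 22 nt forms stayed between 2.75% and 3.09% in all libraries. Per clean read, 18 nt miR159 was 0.984 (0.835 to 1.16) of the CL level in S while 21 nt miR159 was 0.609 (0.535 to 0.693), and in FB these ratios were 3.09 (2.69 to 3.55) and 1.69 (1.52 to 1.88).

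**Figure D2:**
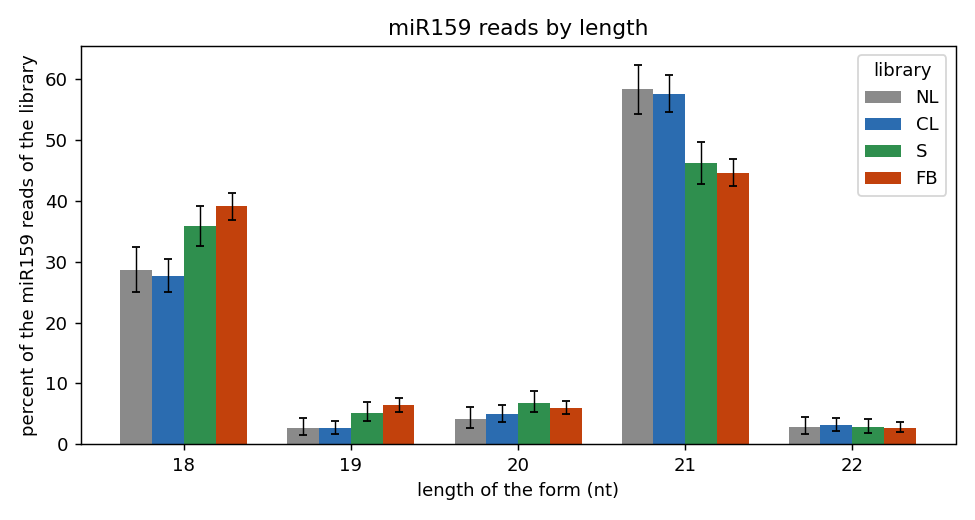
Percent of the miR159 reads of each library that were 18 to 22 nt long. Bars are shares and error bars the exact binomial 95% interval; the 18 nt share was 28.6% in NL and 27.7% in CL against 35.9% in S and 39.1% in FB, and the 21 nt share went the other way.

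Few other families had such a share of 18 nt reads. Among the 16 families with at least 1000 reads, the median 18 nt share over all libraries was 0.450%, against 34.4% for the analysed miR159 forms. The miR159 sequence not analysed here is longer than 18 nt. With it the 18 nt share of miR159 would be lower, and its place among the families could be lower too. Only miR2911 was higher at 60.7%, and its own leading form was 18 nt long. miR894 followed at 15.9% and miR166 at 10.1%. The first 18 bases of the leading form made up 24.4% of the analysed miR159 reads, 9.05% of miR166 reads and 5.45% of miR894 reads. The 18 nt share was highest in FB in each of miR2911, miR159, miR894, miR166 and miR390, at 66.5%, 39.1%, 28.3%, 13.9% and 4.94%, so the high FB value was not particular to miR159. Over all families other than miR159 and miR319 it was 2.35% in NL and 1.39% in CL, and 2.12% in S and 2.75% in FB. The part of RNA length in the libraries as a whole was not tested.

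**Figure D3:**
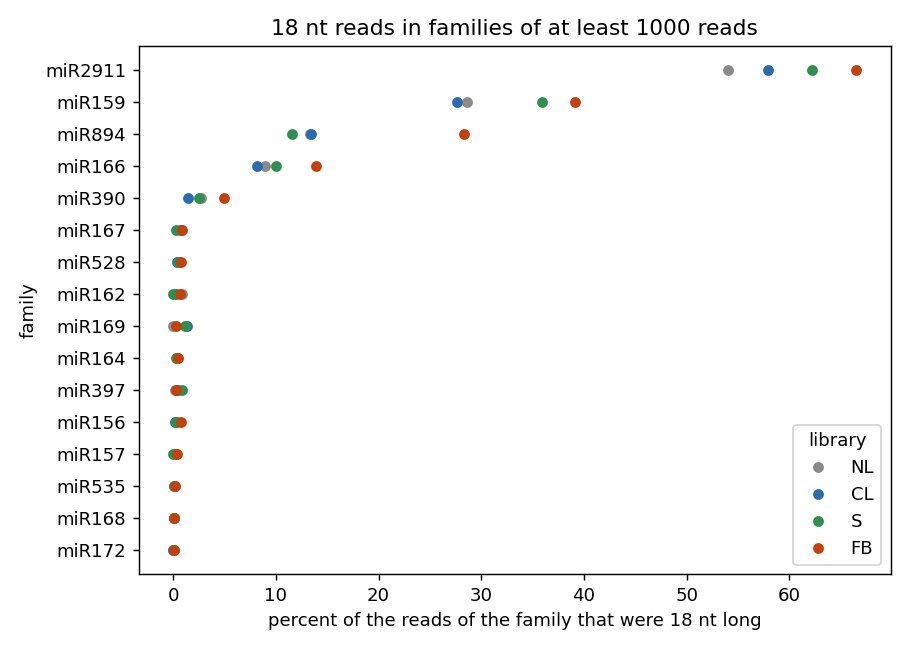
Percent of the reads that were 18 nt long in each of the 16 families with at least 1000 reads, with 1 point per library. The analysed miR159 forms lay between 27.7% and 39.1%, below miR2911 and above miR894 and miR166, except that the FB point of miR894 (28.3%) lay above the CL point of miR159.

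Form C differed from form B only by C17T, which leaves the seed as it was. Form C had 17 reads in NL and 22 in CL, against 81 in S and 102 in FB, or 2.36, 2.97, 10.1 and 16.1 RPM. The leaf libraries had a CL over NL ratio of 1.26 (0.639 to 2.53), and S and FB were higher. The ratio of S to CL was 3.40 (2.10 to 5.72), the highest of the miR159 forms counted in that comparison, and FB to CL was 5.43 (3.40 to 9.04). In the same comparison of S with CL, form A was the lowest.

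An 18 nt read that ends in TT can be read as C17T or as 16 bases of form A with TT added. Longer reads separate these readings in part, since the letters of form A go on after position 17. Capitals mark position 17 in the lines below.
18 nt: tttggattgaagggagTt
19 nt: tttggattgaagggagTtc
20 nt: tttggattgaagggagTtct
21 nt: tttggattgaagggagTtcta
The sequences of 19, 20 and 21 nt had 16, 11 and 30 reads, beside 61, 65 and 1911 reads of the same stretches with C. At 21 nt (form M) there were 1 read in NL and 0 in CL, and 14 in S and 15 in FB. T at position 17 made up 4.20% (2.32 to 6.95) of this pair of sequences in S and 2.01% (1.13 to 3.30) in FB, against 0.311% (0.00786 to 1.72) in NL and 0 of 541 reads in CL, where the exact interval reaches 0.680%. At 18 nt T made up 30.8% (25.3 to 36.8) in S, 16% (13.2 to 19) in FB, 12% (7.13 to 18.5) in NL and 8.59% (5.46 to 12.7) in CL. The share with T was thus highest in S at both lengths, though at 21 nt the intervals of S and FB overlapped. It was higher at 18 nt than at 21 nt in each library.

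Forms with the letters of form A before position 17 were placed on it, and 320 reads of 31 such forms had T there, whatever followed. They numbered 24 in NL and 30 in CL, against 114 in S and 152 in FB, which was 4.45% (2.87 to 6.55), 3.15% (2.14 to 4.47), 14.8% (12.3 to 17.5) and 8.66% (7.38 to 10.1) of the placed reads. With the 18 nt forms left out, 1.81% (0.732 to 3.70) of NL reads, 1.17% (0.508 to 2.30) of CL reads, 6.72% (4.67 to 9.31) of S reads and 4.65% (3.46 to 6.11) of FB reads had T there. The reads with T in this longer set were 97. The 19, 20 and 21 nt sequences printed above held 16, 11 and 30 of them. Other reads of the set had further letters unlike form A after position 17, so it is wider than C17T. S and CL did not overlap in either set, and the S over CL ratio of RPM was 3.51 (2.33 to 5.43) with and 3.81 (1.72 to 9.54) without the 18 nt forms. These shares are taken within a library and do not depend on its scale.

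**Figure D4:**
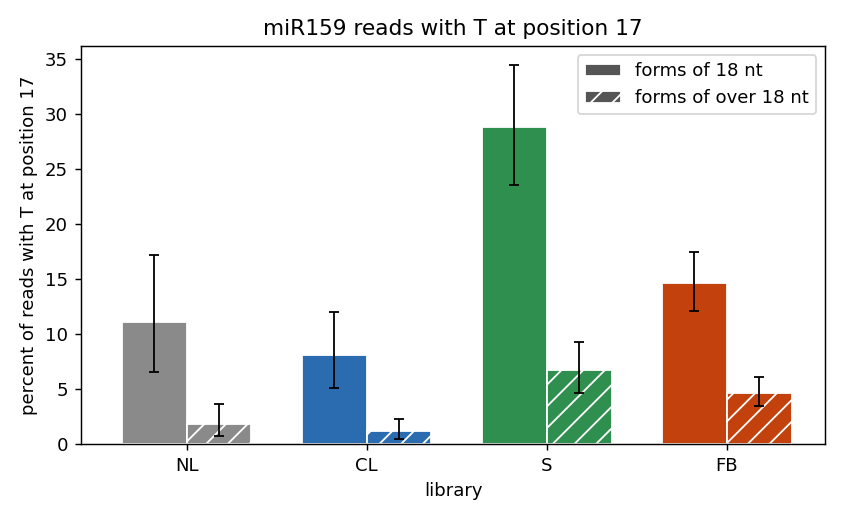
Percent of placed miR159 reads with T at position 17, whatever letters followed, in forms of 18 nt (plain bars) and over 18 nt (hatched bars), by library. Error bars are the exact binomial 95% interval; S reached 28.8% and 6.72%, CL 8.12% and 1.17%.

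C-to-T differences from the leading form were also counted in the other 15 families with at least 1000 reads. They were summed over every C of that form, from 2 in miR397 to 9 in miR166. Their median share was 0.290% in NL and 0.264% in CL, and 0.681% in S and 0.700% in FB, with higher values in S and FB than in the leaves. The pooled share had another order, at 2.88% in NL and 2.72% in CL, against 4.03% in S and 2.02% in FB. miR168 had the highest share in every library, 18.4% in NL and 17.7% in CL, and 8.05% in S and 10.9% in FB. The 21 nt C17T share of miR159 lay above 9 of these 15 families in NL and 0 in CL, against 13 in S and 11 in FB. These places set position 17 alone beside sums over several positions, and the place in NL rests on 1 read. Of the 37 single substitutions seen in 21 nt forms of miR159, C17T came 2nd with 30 reads after A21G with 41, and the median was 2. C19T, the change at the only other C of form A, had 0 reads in NL and 2 in CL, against 6 in S and 8 in FB. At 18 nt C17T led with 222 reads and T18A followed with 76. Whether base 17 varies between copies of the miR159 genes was not tested, because no orchid genome was used here.

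T18A at 18 nt is form G, and form F has a further A. Together they are 17 bases of form A followed by A alone. They had 15 reads in NL and 22 in CL, and 28 in S and 88 in FB, or 2.08, 2.97, 3.49 and 13.9 RPM. They were highest in FB per clean read. FB over CL was 4.69 (2.91 to 7.85) and FB over S 3.99 (2.58 to 6.34), while S over CL was 1.17 (0.648 to 2.15). Per matched read FB over S was 1.26 (0.814 to 2). In FB they made up 4.56% (3.67 to 5.59) of miR159 reads, against 2.13% (1.34 to 3.20) in CL, while the 3.29% (2.20 to 4.73) of S and the 2.51% (1.41 to 4.10) of NL overlapped with FB. Form I, the first 19 bases of form A, was also mostly in FB, with 4 reads in NL and 6 in CL, against 10 in S and 41 in FB. Its FB over S ratio of 5.20 (2.56 to 11.6) was the highest among the miR159 forms counted, with form G close at 5.19 (2.64 to 11.1). Form M with 1.36 (0.612 to 3.04) was the lowest.

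Form E, which starts 1 base further along, had a pattern of its own in the leaves. It had 16 reads in NL and 4 in CL, and 12 in S and 46 in FB, or 2.22, 0.541, 1.50 and 7.28 RPM. It was the only miR159 form called lower in CL than in NL, with a ratio of 0.243 (0.0592 to 0.754), while form A was higher there. FB over CL was 13.5 (4.92 to 51.5), the highest of the miR159 forms counted and based on 4 reads in CL. Form K is bases 2 to 21 of form A and starts at the same base. It had 5 reads in NL and 9 in CL, against 1 in S and 17 in FB, so the lower CL value was not seen in it. All forms that start at base 2 together had 21, 19, 14 and 72 reads in NL, CL, S and FB.

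Form J, A21G of form A and a perfect match to osa-miR159a.1, had 1 read in NL and 10 in CL, and 9 in S and 21 in FB. The study's supplementary tables list 8 sequences of these families with a perfect match, and all 8 were found among the deposited sequences. The 4 of them other than form J, the leading forms and the perfect match to mtr-miR319 had 10, 1, 1 and 1 reads. Their best matches were ath-miR159b, osa-miR159f, ptc-miR319e and aqc-miR159. The best match of 92.9% of miR159 reads was ath-miR159a, of 3.88% osa-miR159a.1 and of 1.65% ath-miR159b. Perfect matches in miR159 came to 6 forms and 1965 reads.

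Counted form by form, the miR159 forms with enough reads followed all forms between the leaf libraries. Their median ratios were above those of all forms in S and FB against CL. A form with at least 20 reads over the 2 libraries counted as higher where its ratio passed 1.5 and as lower where it was under the inverse of 1.5. Between CL and NL 6 miR159 forms were counted, of which forms A and B were higher and form E lower, where 44.3% of all 497 forms were higher and 10.7% lower. The median ratio was 1.36 for miR159 and 1.39 for all. Between S and CL 7 were counted, with forms C, D and F higher and form A lower, where 9.56% of 429 forms were higher and 74.8% lower. The medians were 0.869 and 0.290. Forms D and F had intervals that included 1, and of the higher forms only form C was beyond it. These calls moved with the scale: per matched read 0 miR159 forms were higher between CL and NL, and 7 were higher and 0 lower between S and CL.

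Between FB and CL all 11 miR159 forms counted were higher, where 27.1% of 501 forms were higher and 34.9% lower. The ratios ran from 1.58 in form A to 13.5 in form E, with a median of 2.93 against 0.937 for all forms. Form K, at 2.21 (0.933 to 5.63), was the one whose interval included 1. Between FB and S 11 of 12 were higher and none lower, where 71.1% of 377 forms were higher and 7.96% lower, so the share of miR159 forms was not far above that of the series, and per matched read 3 were higher and 3 lower. The medians there were 3.08 and 3.17. Forms of 1 family overlap in sequence and share their libraries, so they are not independent counts.

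**Figure D5:**
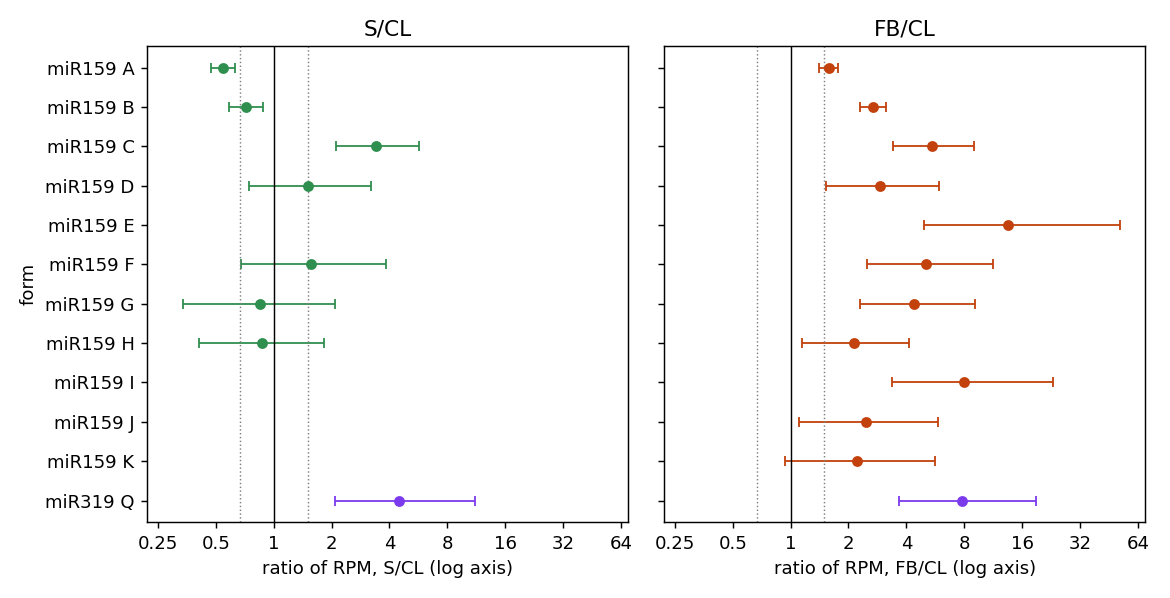
Ratio of RPM of S to CL (left) and FB to CL (right) for each form with at least 20 reads over the 2 libraries, on log axes. Points are ratios, bars the exact 95% interval for counting error, dotted lines 1.5 and its inverse, and purple the leading miR319 form (Q); in FB all 11 miR159 forms lie above 1.5, and in S form A lies lowest at 0.544 and form C highest among miR159 forms at 3.40.

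Most forms were rare. Of the 345 miR159 forms 246 were read once and 261 occurred in 1 library, while the 18 forms found in all 4 libraries held 86.7% of the reads. In all, 15 forms reached 20 reads over the libraries and 3, forms A, B and C, reached 100. There were 76 forms in NL and 127 in CL, against 118 in S and 165 in FB. In miR319, 20 of 36 forms were read once and 2 occurred in all libraries.

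The leading miR319 form held 102 reads, 53.1% of the family. It had 2 reads in NL and 8 in CL, and 39 in S and 53 in FB, or 0.278, 1.08, 4.87 and 8.39 RPM. S and FB were the high libraries. The ratio of S to CL was 4.50 (2.07 to 11.1), of FB to CL 7.76 (3.67 to 18.9) and of FB to S 1.72 (1.12 to 2.68). It was the single miR319 form with enough reads to be counted, and it was called higher in each of these comparisons, where 9.56%, 27.1% and 71.1% of all forms were higher. Per matched read its ratio of FB to S was 0.544 (0.353 to 0.844), so that call did not hold on the other scale. Its share of the family was 57.1% (28.9 to 82.3) in CL, 54.9% (42.7 to 66.8) in S and 51.5% (41.4 to 61.4) in FB, so the leading form and the rest of the family were high together.

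The 22 nt form with an added 5′ C, printed above, had no reads in NL and CL, 7 in S and 4 in FB. A count of 0 allows up to 3 reads, or 0.417 RPM in NL and 0.405 RPM in CL. The first 20 bases of the leading form, a perfect match to mtr-miR319, had 0 reads in NL and 1 in CL, against 0 in S and 6 in FB. The 18 nt share that marked the analysed miR159 forms was not seen in miR319, where 18 nt forms had 0 reads in NL and CL, 3 in S and 3 in FB, or 2.91% (0.605 to 8.28) of the FB reads.

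A further group of 11 forms was named miR319 through its match to smo-miR319, but has other letters than the leading form. Its most frequent member is shown because its reads came from S and FB alone, with the seed in capitals.
smo-miR319-matched form, 22 nt: tTAGCTGCcgactcattcattc
It had no run of more than 4 bases in common with the leading miR319 form or with its reverse complement. It matched the known sequence with 2 mismatches and 2 gaps. The 11 forms had 0 reads in NL and CL, 17 in S and 19 in FB, or 2.12 RPM in S and 3.01 in FB. Without them and with the letters of the leading form alone, miR319 had 4 reads in NL and 10 in CL, and 52 in S and 83 in FB, and its ratios were 4.80 (2.41 to 10.6) for S over CL and 9.72 (5.03 to 21) for FB over CL. The higher levels in S and FB were thus as large without this group.

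The names followed the letters in almost all other reads. A form named miR319 with the letters of miR159 had 2 reads, both in CL. The form matched to aqc-miR159 has form A's letters but for T7C, the miR319 base there, and had 1 read, in S.

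Families with a role near these regulators were set beside them. miR828 and miR858 guide cutting of other MYB messenger RNAs in Arabidopsis. miR828 had 1 read each in NL, CL and FB and 2 in S, too few for any order. miR858 had 11 reads, all in FB (1.74 RPM, 0.869 to 3.12), and none in the other libraries. miR156 and miR157, which act on SPL factors and mark the juvenile phase in Arabidopsis, were lower in FB than in CL, with ratios of 0.308 (0.300 to 0.316) and 0.328 (0.307 to 0.351). miR172, which acts on AP2-type factors and promotes flowering in Arabidopsis, was 2.94 (2.86 to 3.02) times the CL level in S and 2.70 (2.62 to 2.78) in FB, and unlike miR159 and miR319 it was lower in CL than in NL per clean read, at 0.471 (0.457 to 0.486).

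miR396, which acts on growth-regulating factors, was 0.353 (0.267 to 0.464) of its CL level in FB. miR164, which acts on NAC factors of organ boundaries, was at 0.932 (0.898 to 0.967) there, and miR167, which acts on auxin response factors, at 0.142 (0.138 to 0.146). miR396 sequences may be only partly covered here. Of the 8 families of the list, 1 of the 6 with at least 100 reads in FB and CL passed 1.5 in FB over CL, namely miR172, and 4 fell below the inverse of 1.5. Of all 28 families counted in that comparison 9 (32.1%) passed 1.5 and 6 fell below its inverse.

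Alike families were sought by the correlation of log2(RPM + 1) over the 4 libraries, among 36 with at least 100 reads. Those most like the analysed miR159 forms were miR829 (r = 0.977), miR415 (r = 0.965), miR845 (r = 0.95), miR160 (r = 0.928) and miR1023 (r = 0.925). The first 3 of these had only 131, 123 and 114 reads, and miR845 ran only from 3.62 RPM in S to 4.59 RPM in FB. The correlation takes no account of the size of a change, and the order of these families was not tested against counting error. miR319 came 11th with r = 0.744. These places could differ for the whole miR159 family. The families most like miR319 were miR169 (r = 0.838), miR1023 (r = 0.826), miR2914 (r = 0.810), miR529 (r = 0.788) and miR829 (r = 0.787). miR169 shares the high FB level, with 20.4 RPM in NL and 19.7 in CL, against 42.3 in S and 643 in FB. With 4 points that share their libraries and scale, these values are a description.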

How the data were processed

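Total RNA was gel-cut at 20 to 25 nt and sequenced. The authors deposited, per unique sequence, a count of reads: they took out adaptors, contaminants, polyA, poor reads and those under 18 nt, merged identical reads, and aligned the sequences by BLAST (version not given in the sources used here) to miRBase 15, with mismatches and gaps limited to fewer than 5 together as the study states; deposited rows reach 5, and all were kept. Unaligned end bases count as gaps, so an 18 nt stretch of a 21 nt miRNA has 3. Matched reads came to 226523 in NL and 404345 in CL, against 106142 in S and 265352 in FB.

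RPM are reads per 1000000 clean reads, with the clean read totals that the study lists for its libraries. Levels have exact Poisson intervals, shares exact binomial (Clopper-Pearson) intervals and ratios exact conditional binomial intervals, all at 95.0% (Python 3.11.15, SciPy 1.17.1). Intervals and calls were tested on simulated counts for the comparison of CL with NL only.

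Named were both families, miR159 forms of at least 100 reads, miR319 forms of at least 20, leading forms, listed perfect matches, the extreme forms in each comparison, the 5 most alike families and a list of MYB, TCP and flowering families. Members and lists were chosen with earlier results of these data known. The 20 alternatives changed scale, sequences, thresholds or pseudocount.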

Additional observations from a re-analysis of the deposited data

How the results depend on the processing

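The scale decided most. Per matched read the ratios of miR159 became 0.969 (CL/NL), 3.13 (S/CL), 2.84 (FB/CL) and 0.908 (FB/S), and those of miR319 19.3 (S/CL) and 0.580 (FB/S). Per matched read without miR528 they were 1.29, 2.05, 2.96 and 1.44 for miR159, and 12.6 (S/CL) and 0.924 (FB/S) for miR319. Per high-quality read, miR159 had 1.95 (FB/CL) and 2.48 (FB/S). By sequences used, the miR159 ratios of S/CL and FB/CL were 0.553 and 1.60 for perfect matches, 0.65 and 1.82 with at most 2 mismatches and gaps, 0.646 and 1.78 at 20 to 22 nt, 0.609 and 1.69 at 21 nt, and 0.994 and 2.85 without form A.

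Calls of miR159 forms moved as follows. With a minimum of 10 reads, 6 were higher in CL/NL, 6 higher and 2 lower in S/CL, 18 higher in FB/CL and 19 in FB/S. With 50 reads, 0 were lower in CL/NL, 1 higher in S/CL and 6 in FB/CL. With a ratio limit of 2, 0 were higher in CL/NL, and 1 was higher and 0 lower in S/CL. Per matched read, 0 were higher in CL/NL, 7 higher and 0 lower in S/CL, and 3 higher and 3 lower in FB/S. With the interval beyond 1 as well, 1 was higher in S/CL.

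Among perfect matches, which hold no 18 nt form (0%), form A had 99.7% in NL and 97.7% in CL, against 96.1% in S and 96.4% in FB. With at least 2 reads per sequence it had 59.3%, 57.6%, 42.0% and 40.3%. As shares of unique sequences form A was 1.32%, 0.787%, 0.847% and 0.606%, and 18 nt forms 21.1%, 15.0%, 16.1% and 24.2%. Of the alternative values 6 were classed as reversed, 55 as moved and 87 as the same. The moved values include ratios on the same side of 1, such as those of miR159 for FB/CL. Ratios resting on under 20 reads, such as miR319 in leaves, are limited by depth. No paired analysis was possible because each group has 1 library.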
